A study of Mus musculus with 6 samples.

Results

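The MCM family was examined as 10 mouse genes, the 6 subunits of the replicative helicase (Mcm2, Mcm3, Mcm4, Mcm5, Mcm6 and Mcm7) and Mcm8, Mcm9, Mcm10 and Mcmbp, the last of which encodes an MCM-binding protein. The rule that chose the members used their symbols only. All 10 were among the 24062 genes counted, and all 10 passed the filter on low counts that left 16904 genes to test. RNA-seq counts came from whole retinae of mice at postnatal day 21, 3 Rb1/p107 DKO and 3 Rb1/p107/Hells TKO, labelled as C57BL/6. Every mouse of both groups carried Chx10-Cre, floxed Rb1 (lox/lox) and germline p107 -/-, and the TKO mice also carried floxed Hells (lox/lox). Chx10-Cre acts in retinal progenitors in a mosaic pattern, so that a retina of either group also held cells that had not recombined. Retinae with intact Rb1 and p107 were not analysed here, so each value below compares TKO with DKO retinae only.

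MCM2 to MCM7 form a ring that is loaded around DNA at replication origins in G1 by ORC, CDC6 and CDT1. The ring becomes an active helicase in S phase, when the kinase CDC7 with its partner DBF4 acts on it and CDC45 and the GINS complex join. MCM10 takes part in that activation, MCM8 and MCM9 act together in homologous recombination, and MCMBP binds MCM subunits outside the loaded ring and helps to maintain their supply. In cycling cells many of these genes are transcribed under the control of E2F factors, which the RB family (RB1, p107 and p130) restrains. HELLS is a chromatin remodeller of the SNF2 family.

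The start regions of the genes are shown first because E2F sites are a well-known control element of the family. Windows from 250 bases before to 50 bases after a RefSeq start in GRCm38.p6 were on hand for 9 of the 10 members, with 2 starts for Mcm7, and Mcm4 had no window. Both strands were searched for TTTCCCGC, TTTCGCGC, TTTGCCGC and TTTGGCGC, a strict set of E2F-type letters that 744 of 32851 mouse windows (2.26%) held. Of the members, 6 held at least 1 match, namely Mcm3, Mcm5, Mcm6, Mcm7, Mcm8 and Mcmbp, and Mcm2, Mcm9 and Mcm10 held none. In the sequences printed here, 5′ to 3′ on the strand of the gene, capitals mark these matches. The first 3 stretches are the 250 bases before the start of Mcm6, which carried the most matches, of Mcm5, and of Mcm2, which carried none.
Mcm6, chr1:128359706-128359955, minus strand: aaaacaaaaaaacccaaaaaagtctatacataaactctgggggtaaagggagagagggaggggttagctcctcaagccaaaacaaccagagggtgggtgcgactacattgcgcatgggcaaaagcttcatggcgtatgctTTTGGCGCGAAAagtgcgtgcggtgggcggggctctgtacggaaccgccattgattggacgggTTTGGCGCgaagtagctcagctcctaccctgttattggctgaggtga
Mcm5, chr8:75109259-75109508, plus strand: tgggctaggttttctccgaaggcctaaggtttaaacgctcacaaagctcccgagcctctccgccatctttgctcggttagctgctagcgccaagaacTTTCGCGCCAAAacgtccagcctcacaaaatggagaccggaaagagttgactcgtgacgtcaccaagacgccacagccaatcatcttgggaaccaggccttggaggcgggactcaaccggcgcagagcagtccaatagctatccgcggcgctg
Mcm2, chr6:88898781-88899030, minus strand: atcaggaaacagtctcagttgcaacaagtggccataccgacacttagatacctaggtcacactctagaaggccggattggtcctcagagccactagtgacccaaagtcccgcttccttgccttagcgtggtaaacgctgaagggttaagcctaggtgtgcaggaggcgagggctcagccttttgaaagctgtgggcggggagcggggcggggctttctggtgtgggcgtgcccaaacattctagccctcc

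In Mcm6 the run of 12 capitals held a pair of overlapping matches, TTTGGCGC at positions -110 to -103 and TTTCGCGC on the other strand at -106 to -99, and a further TTTGGCGC lay at -47 to -40, where -1 is the last base before the start. The capitals of Mcm5 were likewise an overlapping pair, TTTCGCGC at -153 to -146 and TTTGGCGC on the other strand at -149 to -142. Mcm3, Mcm7 and Mcm8 held matches past the start, within the first 50 transcribed bases, and 30 bases around those are given.
Mcm3, chr1:20820265-20820294, minus strand: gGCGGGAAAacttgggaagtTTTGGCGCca
Mcm7, chr5:138171844-138171873, minus strand: acgacgTTTCGCGCcaatttcggttggccg
Mcm8, chr2:132816159-132816188, plus strand: aagcagaagcgcgtcatagacGCGCCAAAa

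Mcm3 held TTTCCCGC on the other strand at 20 to 27 and TTTGGCGC at 39 to 46 bases past the start. At its first start Mcm7 held TTTCGCGC at 17 to 24 and TTTCCCGC on the other strand at -165 to -158. In Mcm8 a single TTTGGCGC lay on the other strand at 40 to 47, and in Mcmbp a single TTTCCCGC lay at -25 to -18. CCAAT boxes (CCAAT on either strand), which 37.4% of all windows held, were found in every member window except that of Mcmbp. CHR-type letters (TTTGAA or TTCGAA on either strand), which 19.2% of all windows held, occurred in Mcm2 at -70 to -65 and at the first start of Mcm7 at -173 to -168. A match is a description of letters and says nothing of whether a factor was bound. The 8 members that were lower in TKO retinae, described below, included genes with matches to the E2F set (Mcm3, Mcm5, Mcm6, Mcm7 and Mcmbp) and genes without one (Mcm2 and Mcm10), with no window for Mcm4, and Mcm8, which did not pass the test, also held one.

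**Figure D1:**
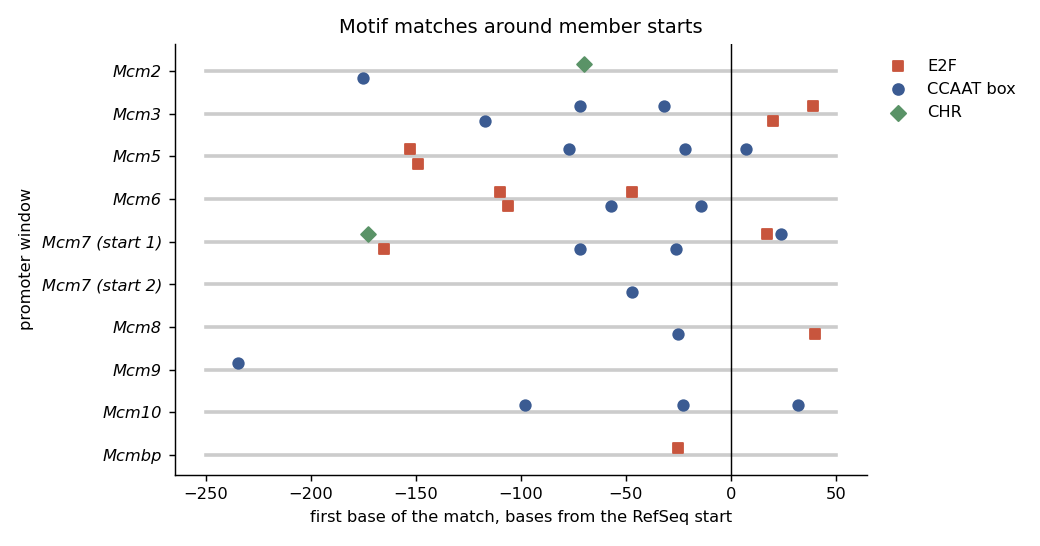
Matches to the E2F, CCAAT and CHR letters in the start windows of the MCM genes, plotted by distance in bases from the RefSeq start, with marks above a line for the strand of the gene and below it for the other strand. Matches to the E2F set appear in 6 of the 9 genes with a window, with 3 of them in Mcm6 and none in Mcm2, Mcm9 or Mcm10.

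The labels were checked on Hells, the floxed gene of the TKO mice, at 70.9 ± 11.5 against 532 ± 142 normalized counts in the DKO mice (SD, n = 3 each), with no overlap. Hells counts include exons outside the floxed part. The log2 fold change of Hells, -2.91, lay within the range of the dividing-cell markers described below (-3.21 to -1.32). The part of the deletion in this fall was not tested. Rbl1, which encodes p107, was low in both groups (20.3 ± 7.02 against 18.6 ± 4.87). Rb1 counts, which include exons outside the floxed part, were 748 ± 66.0 against 591 ± 23.5 (edgeR adjusted p = 0.0388), and this call held in 7 of 14 alternatives. Libraries held 10343907 to 14203098 counts. Rod markers had the highest sum of the marker lists in all 6 libraries, as CPM (counts scaled by library size to a common total). All 6 rod markers were higher in TKO retinae (24605 to 50624 CPM against 8383 to 16012), with 3 passing the test without TKO replicate 2 or DKO replicate 1 and 2 without DKO replicate 2. Lens markers summed to 233.6 CPM in TKO replicate 2, 35.3 and 43.3 in the other TKO retinae, and 5.54 to 6.48 in DKO retinae. Microglial markers were lower in TKO retinae for 3 of 5 genes (51.4 to 82.5 CPM against 94.9 to 139), and none passed without TKO replicate 2, DKO replicate 1 or DKO replicate 2 and 1 without TKO replicate 1. Higher in TKO retinae were also 3 of 6 lens, 2 of 5 cone, 2 of 4 Müller glia, 1 of 5 pigment epithelium and 1 of 3 endothelial markers. Of all genes tested, 7.35% were higher and 9.2% lower in TKO retinae. With 1 retina left out these calls ranged from 1 to 3 for lens, 0 to 5 for cones, 0 to 2 for pigment epithelium and 0 to 1 for endothelium. None of 5 bipolar or 4 amacrine markers passed edgeR's test, with 0 and 1 at an unadjusted p under 0.05 and 0 and 1 by DESeq2. Of 5 blood markers, 4 haemoglobin genes had no counts in any library and the other, Alas2, was higher in TKO retinae. The part of these markers in the MCM results was not tested.

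Of the 10 MCM genes, 8 were lower in TKO than in DKO retinae at an adjusted p of at most 0.05 (edgeR's quasi-likelihood test), where 9.2% of all genes tested were lower. They were Mcm2 to Mcm7, Mcm10 and Mcmbp. No member was higher, where 7.35% of all genes were, with 0 at an unadjusted p under 0.05 and 0 by DESeq2. The change was also at least 1 on the log2 scale for 7 of the 8, all but Mcmbp, where 4.38% of all genes met the thresholds for lower differential expression. The TKO and DKO values of the same 8 genes did not overlap, where 20.6% of all genes were lower without overlap. The median log2 fold change, TKO over DKO, was -1.46 for the 10 members and -1.66 for Mcm2 to Mcm7, beside -0.011 for all genes tested. Because the libraries were made from whole retinae, fewer cells that express these genes and less of their RNA per cell cannot be told apart. DESeq2 also called the 8 genes lower. Without TKO replicate 2 only Mcm3 and Mcm7 passed, with the other 6 at adjusted p from 0.0506 to 0.0747 in edgeR's test, and 5 members passed without DKO replicate 1 or without DKO replicate 2.

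**Figure D2:**
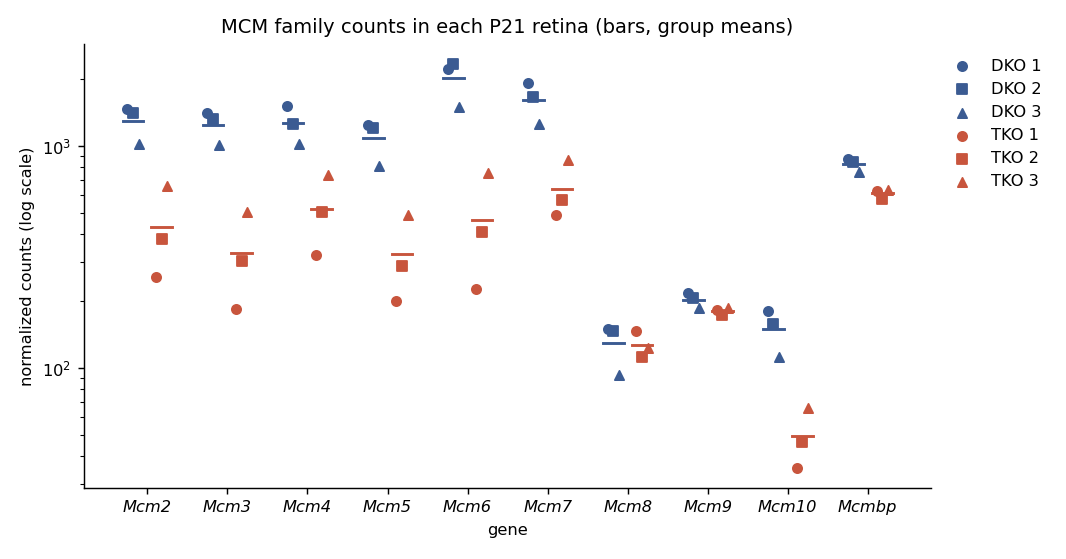
Normalized counts (log scale) of each MCM gene in every retina, with DKO in blue, TKO in red and a bar at each group mean. The points of the groups are apart for Mcm2 to Mcm7, Mcm10 and Mcmbp and intermixed for Mcm8 and Mcm9.

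Among the 6 ring subunits the fall was largest in Mcm6, one of the subunits, with MCM4 and MCM7, of a core that unwinds DNA in vitro. Mcm6 (chr1:128331590-128359664, minus strand) gave 226, 408 and 755 normalized counts in replicates 1, 2 and 3 of the TKO group, and 2209, 2328 and 1495 in those of the DKO group. SE stands for the standard error of a log2 fold change throughout, and retinae are listed in this order. Each DKO retina thus lay well above the highest TKO retina. The means were 463 ± 269 and 2010 ± 451 (SD, n = 3 each), 4.35-fold lower in TKO retinae, with a log2 fold change of -2.12 (SE 0.376, edgeR adjusted p = 0.0107).

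Mcm3 and Mcm5 followed. MCM3 carries the end of the ring that contacts ORC and CDC6 during loading. Mcm3 (chr1:20802968-20820312, minus strand) had 185, 302 and 504 normalized counts in the TKO retinae against 1401, 1320 and 1002 in the DKO retinae. Its lowest DKO value was above its highest TKO value, and its log2 fold change was -1.91 (SE 0.309, edgeR adjusted p = 0.00833). MCM5 forms, with MCM2, the gate through which DNA enters the ring. Mcm5 (chr8:75109569-75128439, plus strand) had 201, 286 and 488 normalized counts in the TKO and 1243, 1200 and 810 in the DKO retinae. Its log2 fold change was -1.74 (SE 0.300, edgeR adjusted p = 0.0101), and the groups were again apart.

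The other side of the gate gave a smaller value. MCM2 also binds histones H3 and H4 at the fork. Mcm2 (chr6:88883474-88898780, minus strand) had 257, 382 and 657 normalized counts in the TKO retinae and 1459, 1402 and 1020 in the DKO retinae, a log2 fold change of -1.59 (SE 0.300, edgeR adjusted p = 0.0126). The remaining core subunits fell least of the 6. MCM7 is the subunit that is ubiquitinated when the helicase is unloaded. Mcm7 (chr5:138164583-138172422, minus strand) had 487, 570 and 859 against 1922, 1649 and 1252 normalized counts, a log2 fold change of -1.33 (SE 0.224, edgeR adjusted p = 0.0094). MCM4 is a main substrate of CDC7 with DBF4. Mcm4 (chr16:15623897-15637400, minus strand) had 323, 504 and 735 against 1509, 1255 and 1015 normalized counts, a log2 fold change of -1.28 (SE 0.268, edgeR adjusted p = 0.0172). In both genes every DKO retina was above every TKO retina.

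The 6 subunits ordered the retinae alike. TKO replicate 1 was the lowest and TKO replicate 3 the highest TKO retina in all 6, and DKO replicate 3 was the lowest DKO retina in all 10 members. DKO replicate 1 was the highest retina for 5 of the 6, and for Mcm6 it was DKO replicate 2. Spread among TKO retinae was wider than among DKO retinae for each subunit, with a ratio of highest to lowest of 1.76 (Mcm7) to 3.34 (Mcm6) in TKO and 1.40 to 1.56 in DKO retinae. Over the 6 libraries the 15 pairs of subunits had Pearson r from 0.985 to 0.999, a description of profiles that share the difference between the groups.

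The subunits were also compared with one another. For each subunit the log2 ratio to the mean of the other 5 was formed within each library, which is free of library scaling. Mcm6 stood 0.64 above the other 5 in DKO retinae and 0.011 above them in TKO retinae, a difference of -0.62. Mcm3 went the same way, from -0.18 to -0.51, a difference of -0.33. Mcm4 and Mcm7 went the other way, from -0.16 to 0.32 for Mcm4 (difference 0.49) and from 0.26 to 0.72 for Mcm7 (difference 0.46). Mcm2 moved by 0.082, from -0.12 to -0.034. In these 5 genes the groups did not overlap, and each two-sided exact permutation p was 0.1, the smallest that 3 against 3 retinae can give (0.12 after Benjamini-Hochberg adjustment over the 6). For Mcm5 the groups overlapped (-0.43 and -0.51, exact permutation p = 0.2). This design cannot reach 0.05 in such a test. The 6 ratios of a library are not independent, because each subunit is part of the mean for the others. The ratios restate the unequal falls of the subunits given above and are not 6 separate results.

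Mcm10, the activation factor, fell like the ring subunits from a much lower level. Mcm10 (chr2:4989714-5012791, minus strand) had 35.5, 46.3 and 66.3 normalized counts in the TKO retinae and 180, 157 and 111 in the DKO retinae. The groups were apart, and the retinae stood in the order seen in 5 of the 6 subunits. Means of 49.4 ± 15.6 and 149 ± 34.8 (SD, n = 3 each) gave a log2 fold change of -1.60 (SE 0.275, edgeR adjusted p = 0.0101). Ratios to the mean of Mcm2 to Mcm7 within a library were formed for the 4 genes outside the ring, a choice made after seeing the data. For Mcm10 this ratio was -3.04 ± 0.218 in TKO and -3.20 ± 0.0632 in DKO libraries on the log2 scale, and these overlapped (exact permutation p = 0.4).

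Mcmbp, the gene of the MCM-binding protein, fell by less. Mcmbp (chr7:128696441-128740495, minus strand) had 625, 578 and 634 normalized counts in the TKO and 871, 848 and 759 in the DKO retinae. These groups were narrow and apart, with a log2 fold change of -0.43 (SE 0.0873, edgeR adjusted p = 0.0153). Relative to Mcm2 to Mcm7 it was higher in TKO retinae, at 0.58 against -0.73 on the log2 scale, without overlap (exact permutation p = 0.1). This ratio restates that Mcmbp fell by less than Mcm2 to Mcm7.

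Mcm8 and Mcm9, the recombination pair, did not pass the test. Mcm8 (chr2:132816141-132844197, plus strand) had 147, 112 and 123 normalized counts in the TKO retinae and 150, 147 and 93.2 in the DKO retinae, with a log2 fold change of -0.033 (SE 0.217, edgeR adjusted p = 0.930). Mcm9 (chr10:53536315-53630439, minus strand) had 182, 174 and 187 against 216, 206 and 186 normalized counts, with a log2 fold change of -0.16 (SE 0.124, edgeR adjusted p = 0.392). Both genes overlapped between the groups. Set against the mean of Mcm2 to Mcm7 in the same library, Mcm8 and Mcm9 stood higher in TKO than in DKO retinae. The differences were 1.72 for Mcm8 and 1.57 for Mcm9 on the log2 scale, each without overlap (exact permutation p = 0.1). After adjustment over the 4 genes outside the ring, each exact permutation p was 0.133. These ratios follow from the fall of Mcm2 to Mcm7 and are no further evidence on Mcm8 or Mcm9.

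**Figure D3:**
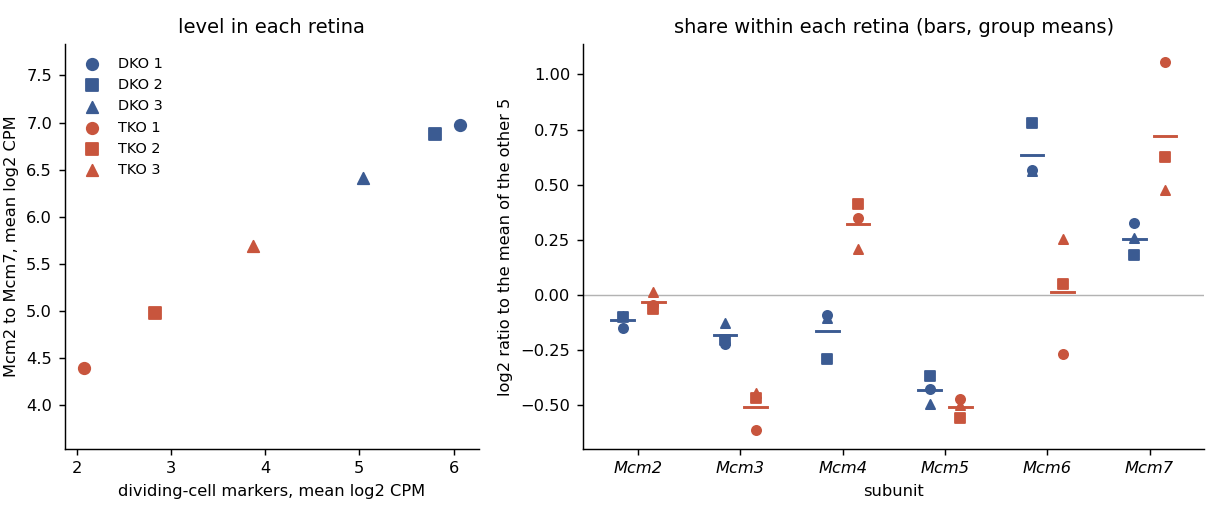
Left, mean log2 CPM of Mcm2 to Mcm7 against that of 8 dividing-cell markers in each retina. Right, log2 ratio of each subunit to the mean of the other 5 in the same retina, with bars at group means. As ratios, Mcm6 and Mcm3 are lower, and Mcm4 and Mcm7 higher, in TKO retinae.

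Levels of different genes were compared here per length, as CPM of the TMM-scaled library per kb. The ratios within a library took no account of length, so only their differences between the groups can be read. With the longest annotated transcript as length, Mcm7 had the highest level in each of the 6 retinae (17.1 ± 5.21 in TKO and 42.9 ± 8.99 in DKO, SD, n = 3 each). In DKO retinae Mcm6 came next (36.5 ± 8.18), and the ranges of these neighbours overlapped. Mcm2, Mcm3, Mcm4 and Mcm5 lay between 25.4 and 29.3 in mean and overlapped with one another. Mcmbp lay below all 6 ring subunits there (15.4 ± 1.10), whereas in TKO retinae its mean of 11.4 ± 0.566 came just after those of Mcm7 and Mcm4 (11.5 ± 4.55). Mcm8 and Mcm9 lay near 3 in both groups, at 2.96 and 2.93 in TKO and 3.03 and 3.28 in DKO retinae, and overlapped with each other. Mcm10 had the lowest mean in both groups, 0.802 ± 0.253 and 2.42 ± 0.565, and in DKO retinae it overlapped with Mcm8.

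The order within the ring depended on the length chosen. With the union of all exons, which counts 6956 bp for Mcm2 in place of 3494 bp, Mcm2 had the lowest subunit level in all 6 retinae, and the highest was Mcm6 in the DKO retinae. The ratio of the highest to the lowest subunit per kb was 1.59 to 1.76 in DKO and 2.01 to 3.17 in TKO retinae with the longest transcript. With the union of exons these ranges overlapped, at 2.19 to 2.48 and 2.17 to 2.98. Summed over the 6 subunits, the level per kb of union length was 49.0 ± 21.2 in TKO and 153 ± 30.1 in DKO retinae, 3.12-fold lower in TKO.

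**Figure D4:**
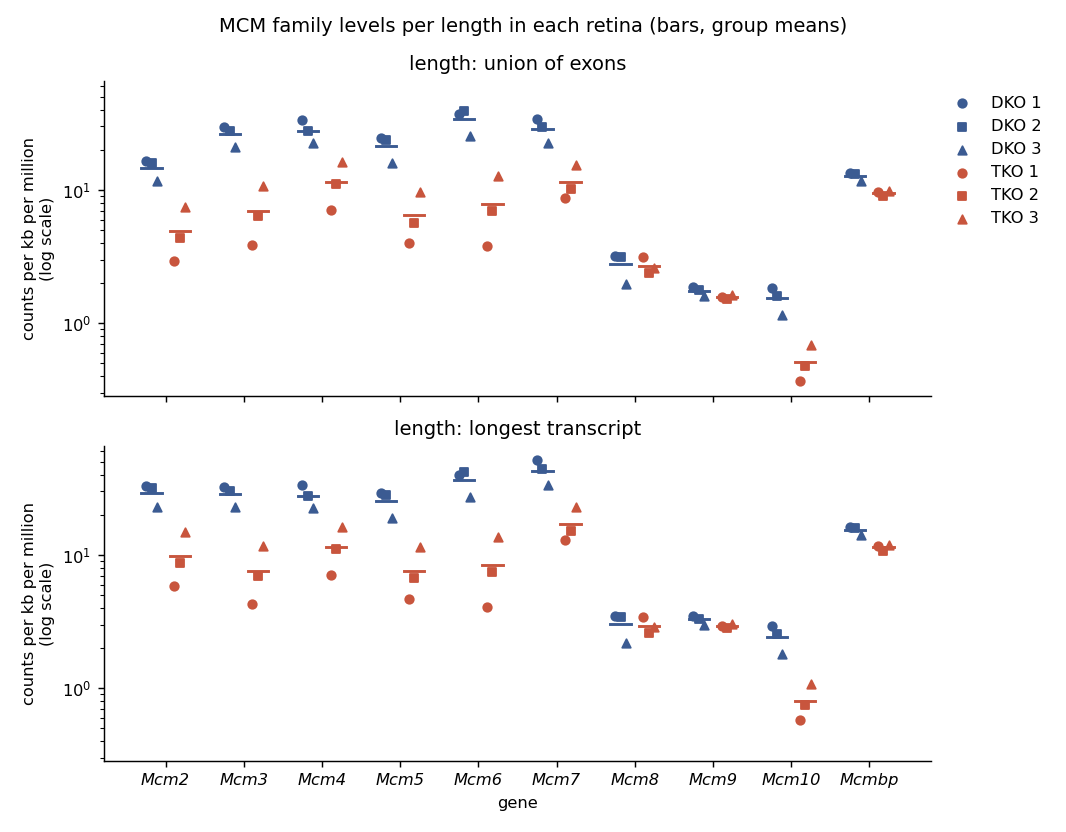
CPM per kb (log scale) of each MCM gene in every retina, for both lengths, with bars at group means. Under both lengths the means of Mcm8, Mcm9 and Mcm10 lie below those of the ring subunits and Mcmbp, and Mcm10 has the lowest mean.

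Genes beside or across the members were read for shared signal. Prkdc, the catalytic subunit of DNA-dependent protein kinase, starts 466 bp from Mcm4 on the other strand, and had 505 ± 98.1 and 471 ± 94.5 normalized counts in TKO and DKO retinae, with overlap (log2 fold change 0.10, adjusted p = 0.734 in edgeR). Trmt6, a tRNA methyltransferase gene, starts 86 bp from Mcm8 and had a log2 fold change of -0.15 (adjusted p = 0.445 in edgeR). Mcm7 shares 321 bp of exon with Ap4m1 and 64 bp with Cops6 on the other strand, 7.25% and 1.45% of its exonic length, and Mcm9 shares 1748 bp (19.2%) with Asf1a. The strand setting of the counting is not given in the sources used here, so reads in those stretches are uncertain. Log2 fold changes were -0.46 for Ap4m1, -0.052 for Cops6 and -0.24 for Asf1a, and none passed (adjusted p = 0.0721, 0.698 and 0.161 in edgeR). The values of Ap4m1 and Asf1a were lower in TKO retinae without overlap, where 20.6% of all genes were, and those of Cops6 overlapped. Mcm7 also hosts the microRNA genes Mir25, Mir93 and Mir106b, which had 35, 10 and 9 counts over all libraries, and mature microRNAs are not measured in such libraries.

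Of 9 origin licensing genes, which load the MCM ring or restrain its loading, 5 were lower in TKO retinae, with a list median of -0.82 beside -0.011 for all genes. For this list and those that follow, the share of all genes tested that were lower was 9.2%. The lower genes included Cdc6 (-1.67), Cdt1 (-1.30) and Gmnn (-1.33), the CDT1 inhibitor geminin. Within ORC, Orc1 (-1.24) and Orc6 (-0.82) passed, and Orc2, Orc3, Orc4 and Orc5 had values from -0.16 to 0.23 and did not. Without TKO replicate 2, DKO replicate 1 or DKO replicate 2 none of the 9 passed, and 3 did without TKO replicate 1.

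Of 12 helicase activation genes 7 were lower, with a median of -1.14. Dbf4, which activates CDC7, had the lowest log2 fold change (-2.43, adjusted p = 0.007 in edgeR), followed by Ticrr (-2.39). Gins1, Cdc45 (-1.41), Topbp1 (-1.47), Gins2 (-1.11) and Gins3 (-1.16) were also lower. Cdc7 itself had a value of -0.38 and Gins4 one of -0.12, and neither passed. Mtbp, whose groups were apart, fell just short of the threshold (-0.65, adjusted p = 0.0501 in edgeR). Recql4 (-0.91) and Donson (-0.40) did not pass either. The list count was 9 by DESeq2, and in edgeR it was 3 without TKO replicate 2, DKO replicate 1 or DKO replicate 2.

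All 9 fork partners, which travel or work with the helicase, were lower, with a median of -1.28. Claspin (Clspn) had -2.11, the sliding clamp Pcna -1.27, and the fork protection pair Timeless and Tipin -0.88 and -1.04. The count was 2 without TKO replicate 2 and 3 without DKO replicate 1 or 2. Of 8 genes that unload the helicase after replication, 1 was lower, near the share of 9.2% over all genes, with a median of -0.0065. That gene was Lrr1 (-2.36, adjusted p = 0.0138 in edgeR), the substrate receptor for ubiquitination of MCM7. Its counts were low, at 2.29, 4.21 and 9.82 normalized counts in the TKO and 29.2, 30.6 and 24.2 in the DKO retinae. Lrr1 did not pass without TKO replicate 2, DKO replicate 1 or DKO replicate 2. The segregase Vcp had 0.058, its cofactors Nploc4 0.15 and Ubxn7 0.33, and none of these 3 passed, although 1 gene of the list was higher without TKO replicate 3. Mcmdc2, a meiotic MCM-domain gene, had a value of 1.16 and Mcm3ap 0.20. Neither of these MCM-related genes passed (0 of 2 in edgeR and 0 by DESeq2, with 2 at an unadjusted p under 0.05).

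**Figure D5:**
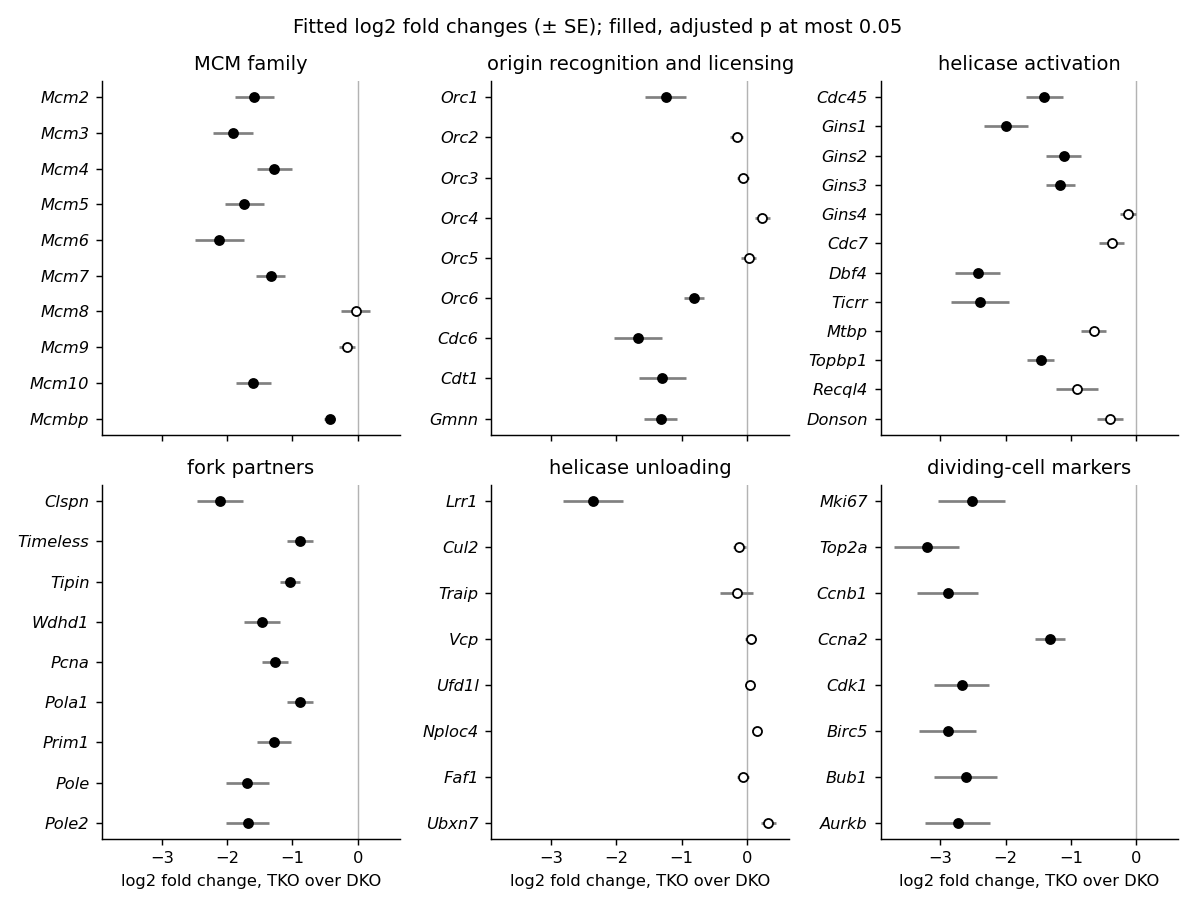
Log2 fold changes, TKO over DKO, with standard errors from edgeR, for the MCM family, 4 lists of genes that work with the helicase and the dividing-cell markers, with filled points for genes that passed an adjusted p of at most 0.05. MCM values run from -2.12 in Mcm6 to -0.033 in Mcm8, all 9 fork partners and 8 dividing-cell markers lie below 0 with filled points, and among the unloading genes Lrr1 alone does.

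Markers of dividing cells moved with the MCM genes. All 8 of the list were lower in TKO retinae, with a median of -2.71, from -3.21 in Top2a to -1.32 in Ccna2, and 4 passed without TKO replicate 2 and 5 without DKO replicate 1 or DKO replicate 2. Their summed level was 64.5, 91.0 and 182 CPM in TKO replicates 1, 2 and 3, and 878, 639 and 407 CPM in DKO replicates 1, 2 and 3, so the retinae stood in nearly the order of the MCM subunits. Mean log2 CPM differed between the groups by -1.73 for Mcm2 to Mcm7 (5.02 ± 0.650 and 6.76 ± 0.299) and by -2.71 for the dividing-cell markers (2.93 ± 0.903 and 5.64 ± 0.535). Within each library Mcm2 to Mcm7 lay above the markers by 2.10 ± 0.254 in TKO and 1.12 ± 0.238 in DKO retinae, without overlap (exact permutation p = 0.1, the smallest possible). The part of cell division in the MCM values was not tested.

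The genes whose profiles were most like that of Mcm2 to Mcm7 were sought by Pearson r over the 6 libraries among 14875 genes outside the members and lists with a mean of at least 10 normalized counts. The highest were Kif18b, a mitotic kinesin (0.9997), Sgol2, a protector of centromere cohesion (0.9995), the kinase gene Melk (0.9993), Cdca7 (0.9991), whose product binds HELLS, and Fam111a (0.9990), a protease gene. All 5 passed the test as lower in TKO retinae, from -2.92 in Melk to -2.23 in Fam111a on the log2 scale. An r above 0.95 was reached by 993 genes, and the 6 libraries fall into separate groups, so these values are a description only.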

How the data were processed

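RNA-seq of 3 TKO (Rb1/p107/Hells) and 3 DKO (Rb1/p107) retinae was analysed, grouped by the sample labels. The authors deposited raw counts of read pairs per gene, not normalized, with 1 column per retina. The paper's methods name STAR and HTSeq on GRCm38, whereas the submitters' processing notes name TopHat2 and featureCounts, so the counter is uncertain. The p-values set the difference between the groups against the spread between these retinae. The labels do not say whether retinae came from separate litters, so an effect of litter cannot be told apart from one of genotype.

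The 10 members and all gene and marker lists were chosen with earlier results of these data known. Genes with a sum under 10 over the 6 libraries were removed. Counts were compared with edgeR 4.0.16 in R 4.3.3 (TMM, quasi-likelihood F test) with Benjamini-Hochberg adjustment over 16904 genes, and DESeq2 1.42.0, the tool of the study, was an alternative. Standard errors were taken as the size of the log2 fold change over the root of F. A gene passed at an adjusted p of at most 0.05, and differential expression also needed a log2 fold change of 1 or more in either direction and 10 or more normalized counts on average (by DESeq2 size factors). Other normalized counts were adjusted to the mean TMM-scaled library size. Ratios within a library used log2 CPM with a prior count of 2 and two-sided exact permutation tests. Library totals were 10343907 to 14203098, and counts of same-group retinae differed beyond sampling noise, with a chi-square of 8.97 to 26.6 per degree of freedom. On simulated data for this comparison edgeR called 200 of 200 changed genes and 12 of 16563 unchanged ones. The simulation gave all genes the same fixed dispersion, which was not estimated from these retinae. Its changed genes were well expressed and had effects of equal size. The simulation thus checked the code, and its rates do not carry over to the real retinae.

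Lengths and coordinates came from GENCODE M21 (GRCm38), which is not the release the paper names, and start windows from RefSeq. Hrob was not matched by symbol, and Ufd1 was read under its older symbol. Genes named were the members, Hells, Rb1 and Rbl1, the 3 most abundant members and the lowest and highest log2 fold change of each pathway list, divergent neighbours within 1 kb, and the 5 genes most like Mcm2 to Mcm7. Other list genes, the genes that share exons with a member, the microRNA genes and Alas2 were named after their values were seen. Tried as alternatives were DESeq2, robust dispersion, 3 scalings, 2 filters, a replicate block, omission of each retina in turn, a stricter threshold, another prior count and the longest transcript as length.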

Additional observations from a re-analysis of the deposited data

How the results depend on the processing

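The 8 lower calls among the MCM genes rest on 3 retinae a group. With the replicate number as a block, none of the members passed (0 lower and 0 differentially expressed), and neither did any origin licensing, helicase activation, fork partner, unloading or dividing-cell gene (0 each), but the numbers did not pair the retinae (correlations of same-numbered deviations 0.052, -0.045 and -0.16), and the block left 82 lower and 24 higher genes in all. In that fit the log2 fold changes of the 8 genes kept their direction, at adjusted p from 0.0582 to 0.0747 in edgeR. At an adjusted p of at most 0.01, 2 members passed, both differentially expressed. With 1 retina left out, the lower members ranged from 2 to 8 and the differentially expressed ones from 2 to 7. The lower genes ranged from 0 to 5 for origin licensing, 3 to 9 for helicase activation, 2 to 9 for fork partners, 0 to 1 for unloading and 4 to 8 for dividing cells, and the higher unloading genes from 0 to 1. Scaling by total counts alone moved the median of all genes to -0.17 and the calls from 1556 lower and 1243 higher to 2610 and 778, and Rbl1 to -0.036. With 1 retina left out Mcm8 ranged from -0.22 to 0.079, above 0 without TKO replicate 2, DKO replicate 1 or DKO replicate 2, and Rbl1 from -0.15 to 0.36, below 0 without TKO replicate 1 or DKO replicate 1. The cause of these changes was not tested. Over the 14 alternatives Mcm3 and Mcm7 passed in 13, Mcm5, Mcm6 and Mcm10 in 12, and Mcm2, Mcm4 and Mcmbp in 10, while Mcm8 and Mcm9 passed in none (adjusted p from 0.417 to 0.992 and from 0.131 to 0.656 in edgeR or DESeq2).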
